A study of Homo sapiens with 20 samples.

Results

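N6-methyladenosine (m6A) peaks on the HOX cluster genes were compared between 2 human bladder cancer (BC) cell lines by methylated RNA immunoprecipitation sequencing (MeRIP-seq), in which RNA fragments are pulled down with an antibody against m6A and sequenced beside an input without antibody. The rule for the genes used their names and no measured value. Every protein-coding gene called HOXA, HOXB, HOXC or HOXD plus a number was taken, which gave 39 of the 20046 protein-coding genes of GENCODE 44 on hg38. A peak belonged to a HOX gene when its summit, the point of highest signal, lay in an exon of that gene. This held for 508 of the 154141 peaks with a summit in a protein-coding exon and of the 231465 peaks in all. T24 is an established line that responds to cisplatin. T24R2 resists cisplatin and was obtained from T24 by serial exposure to the drug. Both are labelled wild type and were collected at day 3 of growth, with 5 IP libraries per line, each called against an input library. Per the study's methods T24R2 was kept in medium with cisplatin, so resistance and drug in the culture cannot be told apart, and T24R2 is a single derived line. Nothing in the labels says that the 5 replicates of a line were separate cultures, so the p-values below measure the spread between libraries, which may be technical.

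HOX genes encode transcription factors that give cells their position along the body axis. They sit in clusters, HOXA on chromosome 7, HOXB on chromosome 17, HOXC on chromosome 12 and HOXD on chromosome 2, and genes with the same number in different clusters are paralogues that descend from one ancestral gene. Low numbers are known for the head and neck region and high numbers for the limbs, the lower trunk and the urogenital tract. Each gene carries a homeobox, the stretch of coding sequence for the DNA-binding homeodomain, usually in the last of a pair of exons. m6A is placed on messenger RNA by the METTL3 and METTL14 methyltransferase complex within the DRACH motif and is known to gather in long exons and around stop codons.

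HOX transcripts were widely marked in both lines. An exonic summit was found in at least 1 library for 33 of the 39 genes (84.6%), beside 51.1% of all protein-coding genes. In all 10 libraries it was found for 24 HOX genes (61.5%), beside 27.5% of all protein-coding genes. With summits in exons of more than 1 gene left out, the counts were 19 HOX genes and 4869 of all protein-coding genes. HOXA7, HOXA10, HOXB6, HOXD10 and HOXD11 then dropped out. HOXA7 had a summit in an exon of no other gene in 0 libraries and HOXA10 in 1. A peak needs both the RNA and the mark, and the peak lists hold no expression level, so a gene without a peak is not shown to be unmethylated or unexpressed. The 6 genes with no exonic summit were HOXA11, HOXB1, HOXC5, HOXC11, HOXC12 and HOXD12.

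By cluster, the marked genes were 10 of 11 in HOXA, 9 of 10 in HOXB, 6 of 9 in HOXC and 8 of 9 in HOXD. The genes found in all 10 libraries were 7 in HOXA, 8 in HOXB, 3 in HOXC and 6 in HOXD. HOXC thus held 3 of the 6 unmarked genes. By paralogue number, 7 of 8 genes of groups 1 to 3, 14 of 15 genes of groups 4 to 8 and 12 of 16 genes of groups 9 to 13 were marked.

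The number of HOX genes per library was close in the 2 lines. It was 29, 28, 27, 29 and 27 in T24 replicates 1 to 5 and 29, 30, 29, 32 and 31 in T24R2 replicates 1 to 5. HOX exons held 47 to 57 summits per T24 library and 46 to 59 per T24R2 library. As T24R2 lists held more exonic peaks in all, the HOX share of exonic peaks was 0.306% to 0.381% in T24 and 0.278% to 0.325% in T24R2, ranges that overlap. The lists held 17203 to 33120 peaks, and sequencing depth is unknown because they hold no read counts. The longest list was T24R2 replicate 5.

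Peak strength was read as the fold enrichment percentile, the rank of the fold enrichment of a gene's strongest exonic peak among all peaks of the same library, from 0 to 100 with 100 the strongest. The median percentile of the 24 HOX genes found in all 10 libraries was 77.7, beside 77.2 for the 5514 protein-coding genes found in all 10. These strongest peaks spread widely, from HOXB7 at the bottom to HOXD3 near the top, as the grid of percentiles shows. Over all HOX peaks, weaker ones included, the median percentile per library was 45.9 to 57.5 in T24, beside 47.3 to 50.7 for all exonic peaks. In T24R2 it was 52.0 to 70.3, beside 47.6 to 51.2, and it was above that of all exonic peaks in each of the 5 T24R2 libraries and in 2 of the 5 T24 libraries.

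**Figure D1:**
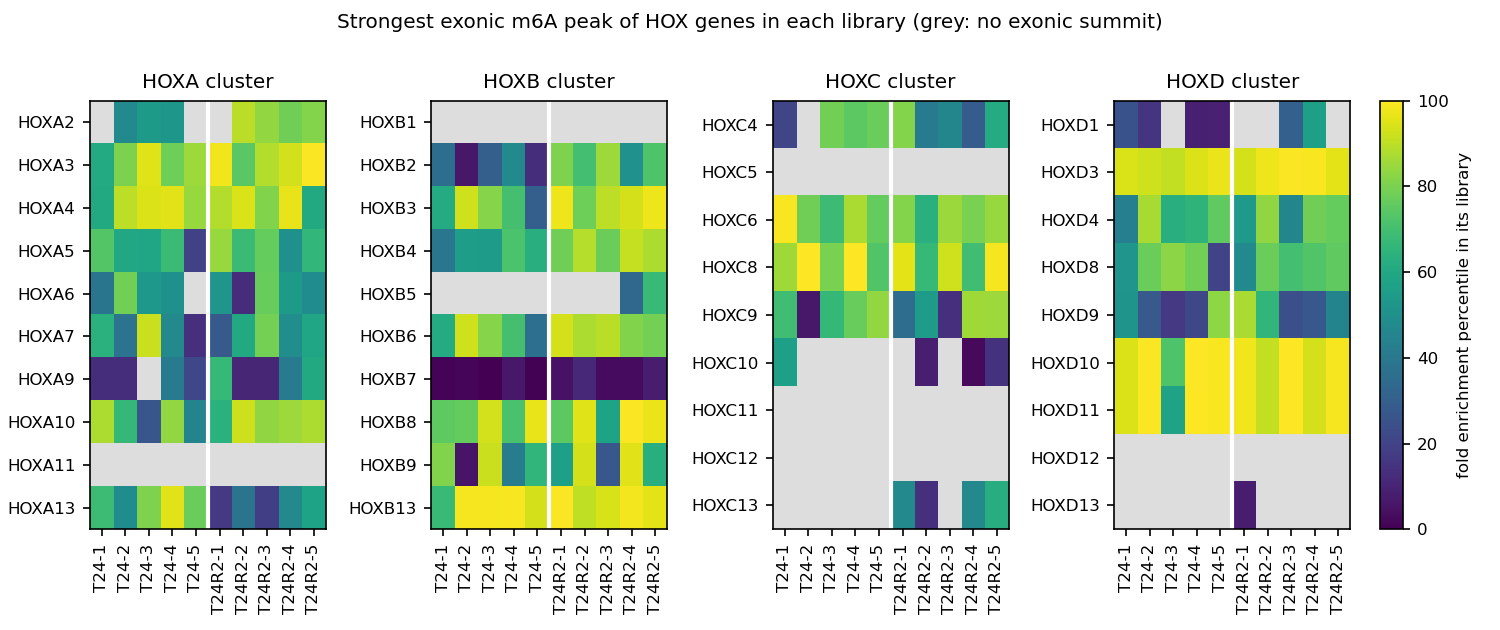
Each row is a HOX gene, each column a library (T24-1 to T24-5, then T24R2-1 to T24R2-5), and the colour is the fold enrichment percentile of the gene's strongest exonic peak, with grey for no exonic summit. HOXD3 stays between 90.8 and 99.3 in all 10 libraries and HOXB7 between 0.0964 and 11.5, while 6 genes are grey throughout.

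In the HOXA cluster, HOXA3, which shapes the organs of the pharynx, had percentiles of 61.1, 80.3, 95.0, 78.1 and 85.4 in T24 replicates 1 to 5 and of 98.0, 74.4, 88.4, 93.1 and 99.4 in T24R2. HOXA4 had 60.9, 90.04, 94.8, 95.6 and 84.7 in T24 and 88.5, 94.4, 81.0, 96.6 and 60.7 in T24R2. The lines overlapped for HOXA3 and HOXA4, and both genes were above 60 in every library. HOXA5, a gene of lung development, had 73.2, 59.4, 59.2, 68.3 and 19.6 in T24 and 84.6, 68.1, 76.4, 50.3 and 66.1 in T24R2. HOXA7 had 64.0, 38.1, 91.9, 47.1 and 13.9 in T24 and 27.8, 60.6, 79.3, 49.0 and 59.0 in T24R2. HOXA10, a gene of the uterus and other parts of the reproductive tract, had 87.6, 66.5, 26.6, 83.8 and 45.0 in T24 and 63.8, 92.2, 83.6, 85.4 and 87.6 in T24R2. The replicate spread of HOXA5, HOXA7 and HOXA10 in T24 was wider than the gap between the lines. HOXA13, a gene of limb ends and the urogenital tract, was the exception in this cluster and had 68.6, 48.4, 80.5, 95.6 and 77.0 in T24 against 16.7, 38.6, 18.4, 47.2 and 58.0 in T24R2.

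In the HOXB cluster, HOXB2 had 36.2, 6.45, 30.1, 47.5 and 12.96 in T24 and 80.6, 70.0, 85.3, 50.7 and 72.4 in T24R2. HOXB4, known for the expansion of blood stem cells, had 39.4, 55.9, 55.0, 71.8 and 63.1 in T24 and 78.2, 88.7, 77.6, 91.2 and 87.6 in T24R2. For HOXB2 and HOXB4 every T24R2 library lay above every T24 library. HOXB3 had 61.7, 92.6, 81.8, 70.7 and 30.2 in T24 and 97.6, 77.7, 90.2, 93.5 and 97.6 in T24R2. HOXB6 had 61.7, 92.6, 81.8, 70.7 and 36.4 in T24 and 93.5, 87.6, 89.7, 81.1 and 79.0 in T24R2. HOXB3 and HOXB6 share their first 4 T24 values because their strongest peak there lay in exons of both genes. HOXB7, often raised in tumours, had 0.811, 1.81, 0.0964, 6.53 and 0.619 in T24 and 4.81, 11.5, 3.04, 2.85 and 7.61 in T24R2, the lowest of the HOX genes found in all 10 libraries. HOXB8 had 75.1, 76.3, 93.3, 71.4 and 96.6 in T24 and 74.8, 95.1, 58.1, 99.3 and 97.0 in T24R2. HOXB9 had 81.2, 5.74, 92.1, 42.3 and 65.9 in T24 and 56.3, 93.4, 27.3, 95.5 and 63.3 in T24R2. HOXB8 and HOXB9 did not separate the lines at the level of the gene, although the single peaks of HOXB8 did, as described below. HOXB13, a gene of the prostate, had 67.4, 98.6, 98.8, 99.0 and 93.6 in T24 and 99.3, 90.6, 93.9, 98.1 and 95.9 in T24R2.

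In the HOXC cluster, HOXC6 had 99.0, 78.4, 68.7, 87.4 and 76.4 in T24 and 81.5, 63.6, 84.8, 79.8 and 84.6 in T24R2. HOXC8 had 85.9, 100, 79.9, 99.8 and 72.8 in T24 and 96.0, 67.0, 93.0, 69.5 and 98.6 in T24R2. HOXC9 had 69.3, 6.56, 66.8, 76.8 and 83.8 in T24 and 35.7, 55.2, 13.9, 85.6 and 85.3 in T24R2. The lines overlapped for these 3 genes, which are known from the trunk.

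In the HOXD cluster, HOXD3 had 94.4, 92.9, 90.8, 94.8 and 97.0 in T24 and 93.7, 97.4, 99.3, 99.2 and 95.9 in T24R2, the tightest range of a strongly marked HOX gene. HOXD4 had 43.3, 87.1, 62.9, 65.1 and 75.6 in T24 and 53.7, 83.5, 45.9, 78.2 and 76.3 in T24R2. HOXD8 had 52.0, 77.6, 82.6, 78.7 and 20.6 in T24 and 47.9, 77.4, 70.3, 72.7 and 75.5 in T24R2. The lines overlapped for HOXD4 and HOXD8, and HOXD8 was more spread in T24. HOXD9 had 51.8, 27.8, 16.7, 21.7 and 83.0 in T24 and 87.3, 65.7, 24.3, 27.7 and 45.0 in T24R2. HOXD11, a gene of the forearm and kidney, had 94.8, 99.5, 57.4, 99.9 and 99.2 in T24 and 97.8, 90.9, 99.8, 93.6 and 98.8 in T24R2. HOXD10, a gene of the hind limb and lower spinal cord, had 94.8, 99.5, 72.5, 99.9 and 99.2 in T24 and the same values as HOXD11 in T24R2. Those shared values come from 1 region, chr2:176108818-176109589, which lies in exons of both genes and was placed in the coding sequence of HOXD11.

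The remaining 9 marked genes were found in some libraries only. In libraries of T24 and of T24R2 the counts were 3 and 4 for HOXA2, 4 and 5 for HOXA6, 4 and 5 for HOXA9, 0 and 2 for HOXB5, 4 and 5 for HOXC4, 1 and 3 for HOXC10, 0 and 4 for HOXC13, 4 and 2 for HOXD1, and 0 and 1 for HOXD13. HOXC13, a gene of hair and nails, was thus found in T24R2 alone, at percentiles of 47.0, 14.03, 47.2 and 62.4 for the strongest peak in replicates 1, 2, 4 and 5. Its summits did not fall at 1 place: they lay in 3 regions, seen in 1, 3 and 1 of the T24R2 libraries.

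The first comparison asked whether the lines carry m6A on different HOX transcripts. Over all 10237 marked genes, libraries with an exonic summit were set against each other, 5 to 5, in Fisher's exact test (two-sided) with Benjamini-Hochberg adjustment over all of them. HOXC13, found in 0 of 5 T24 and 4 of 5 T24R2 libraries, had an unadjusted exact p of 0.0476 and an adjusted p of 0.589. It was the single HOX gene of 33 with an unadjusted p under 0.05 toward T24R2, beside a background of 5.8% of all marked genes, and no HOX gene passed toward T24, beside 2.28%. No gene passed an adjusted p of 0.05 in this test, while 827 genes had an unadjusted p under 0.05. With the same number of peaks kept per library, the HOXC13 difference fell from 4 to 2 libraries (exact p = 0.444). The HOX gene with an unadjusted p under 0.05 was then HOXA13, in 5 T24 libraries and 1 T24R2 library (exact p = 0.0476).

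HOXD10 gave another count when shared exons were set aside. Its presence in all 10 libraries rested on the region it shares with HOXD11. With the exons of the canonical transcript alone, HOXD10 was found in 5 of 5 T24 and 0 of 5 T24R2 libraries (unadjusted exact p = 0.00794). The same counts arose when summits in exons of more than 1 gene were left out. The lowest adjusted p over all genes was 0.202 with canonical exons and 0.2025 with the shared summits left out. No share of all genes with this pattern was drawn. The counts restate the HOXD10 coding region described below and are not separate evidence.

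The next comparison went to single regions, taken from the authors' merge of all peaks. The 508 summits fell in 73 of 43676 regions. Each HOX region thus holds an exonic summit, while the background here and below is every merged region, with or without one. The shares are therefore not like for like, and no background of exonic regions alone was drawn. Of the HOX regions 31 were found in all 10 libraries (42.5%), beside 21.9% of all regions, and 10 in 1 library (13.7%), beside 27.9%. A total of 3 HOX regions had a peak in all 5 T24 and in no T24R2 library, a share of 4.11% beside a background of 1.05%. None had the reverse pattern, beside a background of 3.02%. HOXB8 held 2 of the 3 T24-only regions and HOXD10 the other. All 3 had an unadjusted two-sided Fisher's exact p of 0.00794, the smallest that 5 against 5 libraries allow, and an adjusted p of 0.195 over all regions. No region passed an adjusted p of 0.05, with 4021 at an unadjusted p under 0.05.

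The DNA letters at these sites, and at sites that paralogues share, are shown as description and entered no test between the lines. Each is the 27-base stretch around the GGAC motif nearest to the region's middle summit, read from hg38 on the strand of the gene, with the motif and the next base in capitals. The T24-only sites are the following.
HOXB8 coding, chr17:48614600-48614626, minus strand: ggcttcgcccaGGACCtgggcggccga
HOXB8 5'UTR, chr17:48615031-48615057, minus strand: atgtaaagcgaGGACCtctttaagtgg
HOXD10 coding, chr2:176117064-176117090, plus strand: agtagacagttGGACAgatccgaacag

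The HOXB8 coding region, chr17:48614450-48614884, lies in exon 1 with its middle summit at codon 41, ahead of the homeobox. Its fold enrichment was 10.2, 9.43, 15.95, 5.84 and 15.8 in T24 replicates 1 to 5, at percentiles of 73.7, 76.3, 93.3, 36.5 and 96.6, and no T24R2 library had a peak there. The GGAC site shown lies 30 nt from the middle summit. In T24 replicate 2 the summit lay in the 5'UTR, at nt 502 of the canonical mRNA, and in the other T24 libraries between nt 707 and 715. The HOXB8 5'UTR region, chr17:48615034-48615276, had a fold enrichment of 10.4, 3.86, 8.47, 9.28 and 6.60 in T24 and no peak in T24R2. It was the weaker of the pair: with a -log10 q of at least 10 its difference in libraries shrank from -5 to -3 (exact p = 0.167), while the coding region kept all 5 T24 libraries.

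HOXB8 was not without peaks in T24R2. Another region, chr17:48612882-48613561 in exon 2, spans the homeobox and the stop codon, runs into the 3'UTR and was found in all 10 libraries. The summit lay inside the homeobox in 1 T24 and 3 T24R2 libraries. The fold enrichment there was 6.51, 5.49, 4.32, 5.04 and 3.50 in T24 and 9.24, 18.1, 7.04, 24.9 and 18.3 in T24R2, so every T24R2 library lay above every T24 library. T24 had a mean percentile of 22.9 ± 13.4 (SD, n = 5), and T24R2 of 84.8 ± 17.9. The -log10 q of the same peaks was 51.4, 21.9, 14.05, 30.5 and 7.97 in T24 and 17.2, 45.9, 12.2, 49.3 and 31.8 in T24R2, which overlap. HOXB8 thus kept its 3' peak in both lines, with the higher fold enrichment in T24R2, and had its 2 upstream regions in T24 alone.

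HOXD10 had no peak of its own in T24R2. Its coding region, chr2:176116643-176117506 in exon 1 with the middle summit at codon 76, had a fold enrichment of 13.4, 10.5, 9.97, 18.4 and 14.7 in T24, at percentiles of 87.0, 82.3, 72.5, 96.5 and 95.4. The 5 T24 summits lay within nt 264 to 289 of the mRNA, and the GGAC site shown lies 16 nt from the middle one. T24R2 had no peak in this region and none in the homeobox region, chr2:176118953-176119096, where 2 T24 libraries had one. When a library had to cover at least 50% of the region, the difference fell to -2 libraries (exact p = 0.444), since few T24 peaks spanned so much of it.

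**Figure D2:**
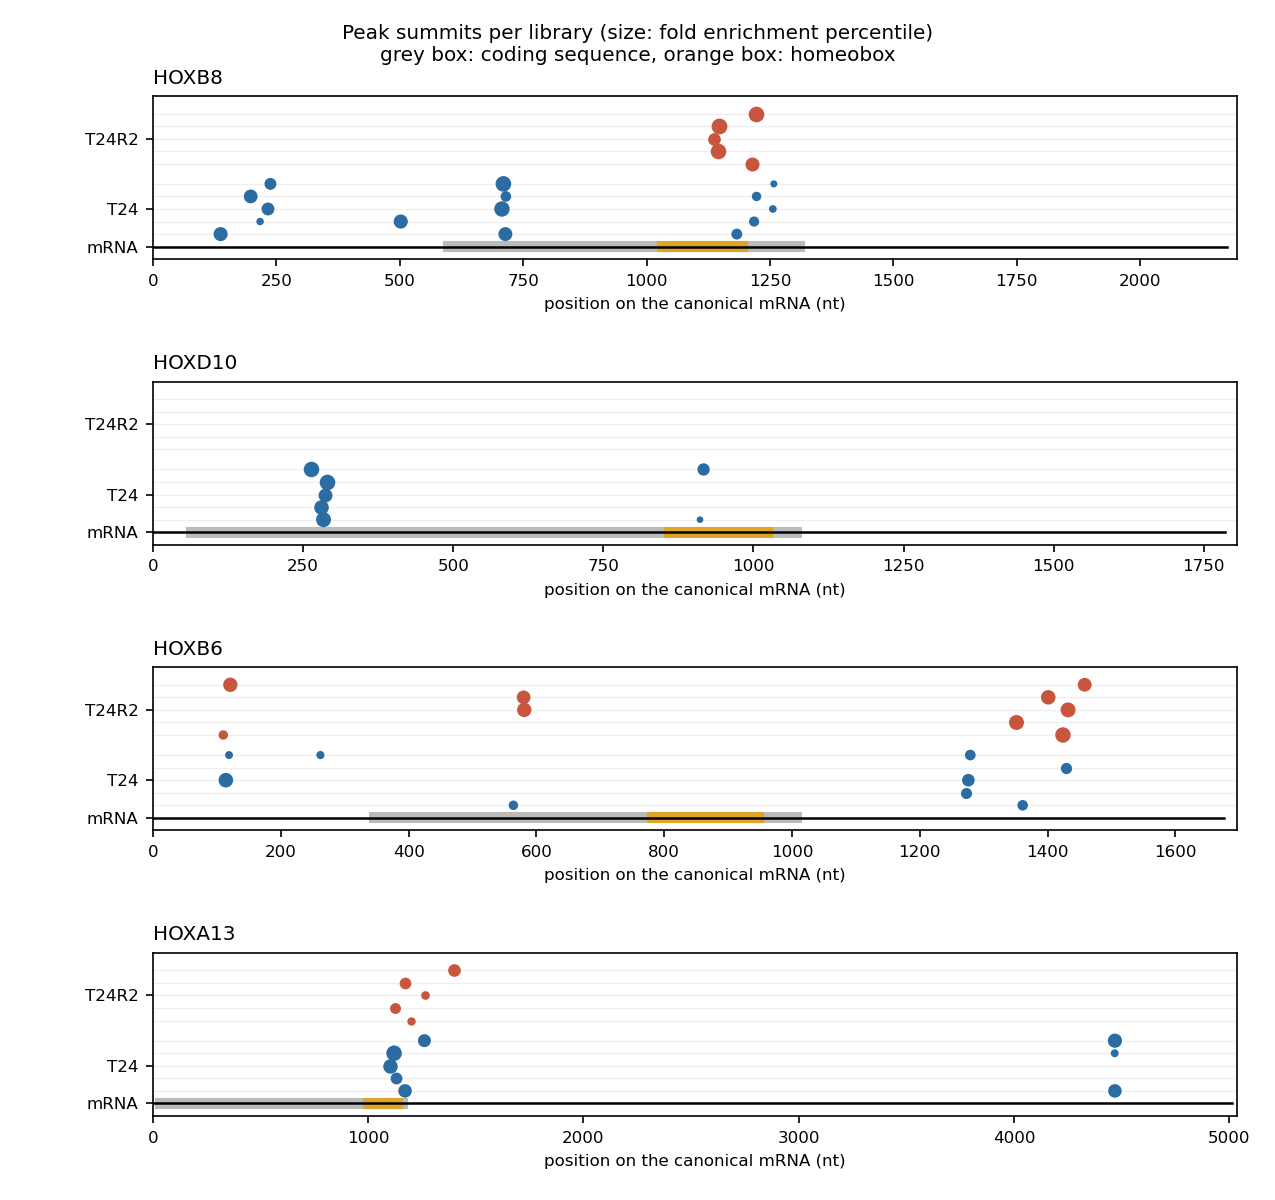
Summits of each library are drawn along the canonical mRNA of HOXB8, HOXD10, HOXB6 and HOXA13 in nt, T24 in blue below and T24R2 in red above, with point size rising with the fold enrichment percentile, a grey box for the coding sequence and an orange box for the homeobox. HOXB8 has upstream summits in the 5 T24 libraries alone and summits near the end of the homeobox in all 10, HOXD10 has summits in T24 alone, and the HOXA13 summits around the stop codon are smaller on average in T24R2.

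Another pair of regions leaned toward T24R2. A HOXC10 coding region at codon 256, chr12:53989046-53989527, had a peak in T24 replicate 1 at a fold enrichment of 8.03 and in T24R2 replicates 1 to 5 at 4.09, 4.09, 7.26, 2.91 and 4.19, with the summit in an exon in 3 of them. A HOXD8 coding region at codon 133, chr2:176130427-176130892, had a peak in T24 replicate 4 at 10.6 and in T24R2 replicates 1 to 5 at 3.03, 5.71, 6.39, 2.94 and 8.67. In each of them the T24 peak had the highest fold enrichment. Both had an unadjusted exact p of 0.0476 and an adjusted p of 0.517. They were 2 of 73 HOX regions with an unadjusted p under 0.05 toward T24R2 (2.74%), beside a background of 7.11%. Toward T24 the 3 regions above were the whole count (4.11%), beside 2.09%. With the same number of peaks kept per library, the lean toward T24R2 was not kept. The difference in libraries was then 0 for the HOXC10 region and 2 for the HOXD8 region (exact p = 0.524 for the latter).

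Peak strength was then compared for the 24 HOX genes found in all 10 libraries, with the mean percentile permuted exactly over every assignment of the libraries to the lines (two-sided) and p adjusted over 5514 genes. HOXB2 stood at 26.7 ± 16.8 (SD, n = 5) in T24 and 71.8 ± 13.3 in T24R2, and HOXB4 at 57.1 ± 11.9 and 84.7 ± 6.29 (exact p = 0.00794 for each). The adjusted p of both was 0.161. A gene's strongest peak need not be the same peak in each library. For HOXB4 it lay in the coding region in T24 replicates 2 to 5 and in the 3'UTR region in T24R2 replicates 2 to 5. The HOXB4 coding region stood at a mean of 61.5 in 4 T24 libraries and 70.6 in T24R2. The HOXB4 3'UTR region stood at 33.9 and 78.6. For HOXB3 the means were 67.4 ± 23.8 and 91.3 ± 8.21 (exact p = 0.0476, adjusted p = 0.328). That HOXB3 call was lost when T24 replicate 1, 4 or 5 or T24R2 replicate 1, 3, 4 or 5 was left out (exact p up to 0.0952), and without T24 replicate 5 the difference fell from 23.9 to 14.6 points. With canonical exons, or summits in exons of 1 gene only, it was 36.2 points (exact p = 0.00794). HOXA13 had the opposite sign, at 74.0 ± 17.3 in T24 and 35.8 ± 18.0 in T24R2 (exact p = 0.0159, adjusted p = 0.222). No gene of the 5514 passed an adjusted p of 0.05, and 800 had an unadjusted p under 0.05.

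Read against the background, the gene counts were near those of all genes. The 3 genes toward T24R2 were 12.5% of 24, beside 11.4% of all genes, and HOXA13 toward T24 was 4.17%, beside 3.14%. HOXB2 and HOXB4, whose lines did not overlap, were 8.33% of 24, beside 3.97%. The median difference, T24R2 minus T24, was 4.12 percentile points over the HOX genes and 4.38 over all genes, and 19 of the 24 were higher in T24R2 (79.2%), beside 65.3% of all genes.

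**Figure D3:**
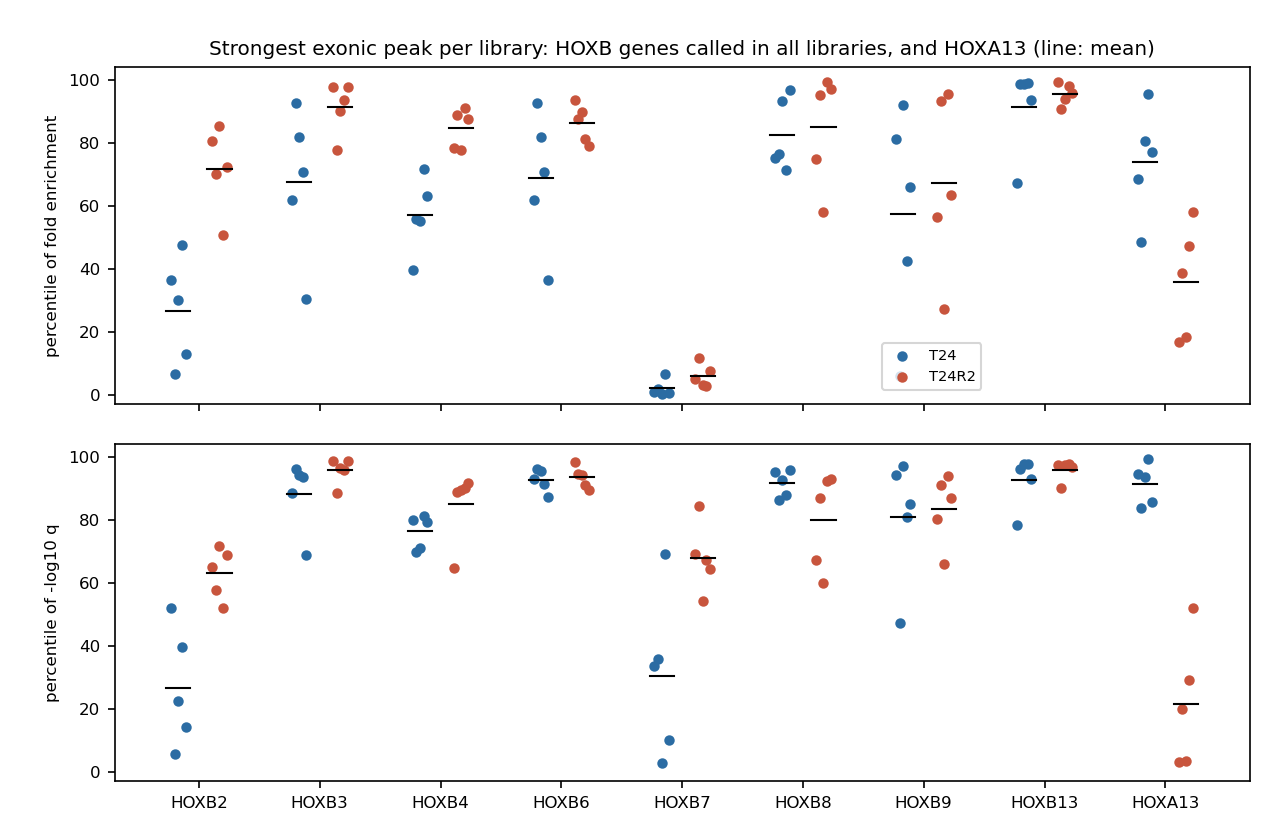
Percentile of fold enrichment (top) and of -log10 q (bottom) of the strongest exonic peak in each library, T24 in blue and T24R2 in red with a line at the mean, for the HOXB genes found in all 10 libraries and for HOXA13. HOXB2 separates the lines in fold enrichment, from 6.45 to 47.5 in T24 and from 50.7 to 85.3 in T24R2, and HOXA13 separates them in -log10 q, from 83.9 to 99.4 in T24 and from 3.04 to 52.0 in T24R2.

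HOXB4 kept an exact p of 0.00794 at a -log10 q of at least 5 or 10 and with peak numbers made equal. HOXB2 and HOXA13 were then no longer in every library and could not be tested. The measure of strength mattered too. By the percentile of -log10 q, HOXB2 was 36.3 points higher in T24R2 (exact p = 0.0159), while HOXB4 differed by 8.63 points (exact p = 0.143) and HOXB3 by 7.39 points (exact p = 0.1905). HOXA13 differed more by this measure, with a mean of 91.4 in T24 and 21.5 in T24R2 (exact p = 0.00794, adjusted p = 0.119). The HOXA13 region at the stop codon, chr7:27197653-27198487, had a -log10 q of 49.6, 20.3, 31.1, 64.6 and 18.2 in T24 and of 2.80, 7.50, 2.68, 7.97 and 10.0 in T24R2, with no overlap. A second HOXA13 region in the 3'UTR, chr7:27194797-27195188, had a peak in 3 T24 libraries and no T24R2 library.

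Region by region, 4 of the 31 HOX regions found in all 10 libraries had a higher fold enrichment percentile in every T24R2 library than in any T24 library (12.9%), beside 3.63% of 9577 regions, and none the reverse, beside 0.867%. This comparison was added after the data had been seen, and its background again holds regions with and without an exonic summit. All 4 lie in the HOXB cluster. Besides the HOXB8 region they are the HOXB3 coding region at codon 398, chr17:48549983-48551250, a HOXB6 3'UTR region, chr17:48595726-48596723, and a HOXB6 5'UTR region, chr17:48597738-48598559. The last is named for its middle summit, and single summits in it also fell in the coding sequence. Its summit lay in a HOX exon in 5 T24 and 3 T24R2 libraries.

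HOXB3 stood at percentiles of 48.9, 71.8, 54.6, 70.1 and 30.2 in T24 and 97.6, 77.7, 90.2, 93.5 and 97.6 in T24R2. The HOXB6 3'UTR region stood at 35.7, 40.6, 57.5, 42.3 and 36.4 in T24 and 93.5, 87.6, 86.9, 81.1 and 71.6 in T24R2. The HOXB6 5'UTR region stood at 25.4, 9.62, 20.9, 45.4 and 15.0 in T24 and 67.0, 67.8, 79.5, 70.7 and 55.2 in T24R2. All 4 had an exact permutation p of 0.00794 and an adjusted p of 0.176 over the 9577 regions, of which none passed 0.05 and 1332 had an unadjusted p under 0.05. By the unadjusted exact test 8 of the 31 regions were higher in T24R2 (25.8%), beside a background of 10.9%, and 1, in HOXA13, was higher in T24 (3.23%), beside 3.04%. The other 4 toward T24R2 overlapped between the lines, and 3 of them lie in the HOXA cluster. The HOXB4 3'UTR region, chr17:48575787-48577114, had 4 T24R2 libraries at 77.6 to 91.2 and replicate 1 at 47.9, against 11.8 to 54.4 in T24 (exact p = 0.0159). A HOXA6 region, chr7:27150320-27150801, had means of 56.2 and 84.9 (exact p = 0.0159), with an exonic summit in 1 library of each line. A region in exons of HOXA5 and HOXA6, chr7:27143072-27145930, had 62.0 and 78.6 (exact p = 0.0238), and a HOXA3 coding region, chr7:27110168-27110499, had 44.9 and 75.1 (exact p = 0.0476). The region in exons of both HOXB3 and HOXB6, chr17:48604324-48605016, did not separate the lines, at 13.3 to 92.6 in T24 and 25.02 to 89.7 in T24R2.

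By -log10 q these HOXB regions differed less. The differences in percentile, T24R2 minus T24, were 61.9 for fold enrichment and 2.80 for -log10 q in HOXB8 (exact p = 0.786 for the latter). They were 41.6 and 2.03 in the HOXB6 3'UTR region (exact p = 0.341 for the latter) and 44.8 and 3.60 in the HOXB6 5'UTR region (exact p = 0.619 for the latter). In HOXB3 they were 36.2 and 9.50 (exact p = 0.0476 for the latter). Fold enrichment is a ratio to the local input, and -log10 q also grows with the number of reads. The input level of these transcripts was not analysed here, and its part in the result was not tested.

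**Figure D4:**
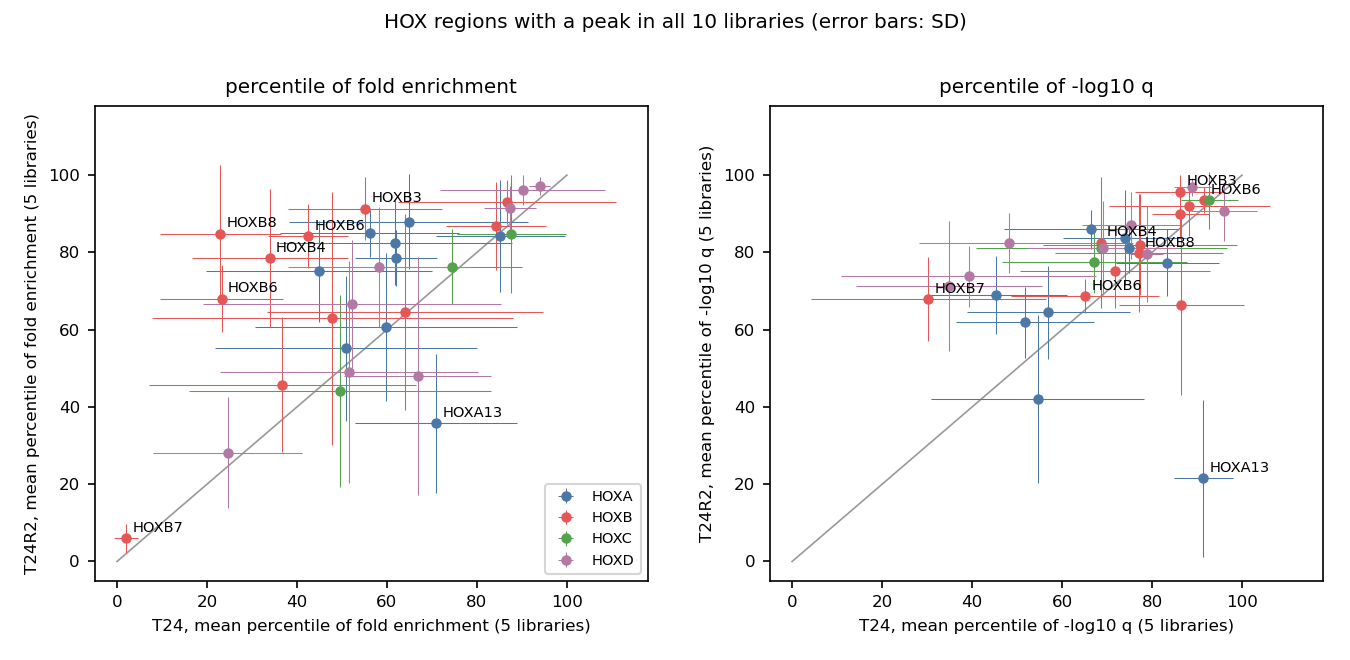
Mean percentile in T24 (horizontal) against T24R2 (vertical) of each HOX region found in all 10 libraries, with SD bars over 5 libraries and colour by cluster, for fold enrichment on the left and -log10 q on the right. The HOXB8 region stands at 22.9 and 84.8 on the left and near the diagonal at 77.1 and 79.9 on the right, while HOXA13 lies below the diagonal in both.

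HOX summits lay in the coding sequence in a larger share than summits of all protein-coding genes in 9 of 10 libraries. On canonical transcripts the coding share was 69.2% ± 5.43 (SD, n = 5) in T24 and 70.9% ± 3.44 in T24R2, beside 59.9% ± 0.824 and 60.3% ± 0.829 over all protein-coding genes. The 3'UTR held 25.8% ± 3.09 and 24.6% ± 2.56 of HOX summits, beside 32.9% ± 0.701 and 32.6% ± 0.851. HOX genes are short, with 2 exons in 35 of 39 canonical transcripts, and 42.5% ± 4.12 and 44.8% ± 2.77 of their summits lay within 200 nt of the stop codon, beside 23.3% ± 1.40 and 24.03% ± 1.83. The ranges of HOX and of all genes did not overlap for the stop codon window, at 38.5% to 48.9% against 21.6% to 26.5% over the 10 libraries. The 2 lines overlapped in each of these shares. They are descriptions of the same summits, and transcript length was not matched.

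**Figure D5:**
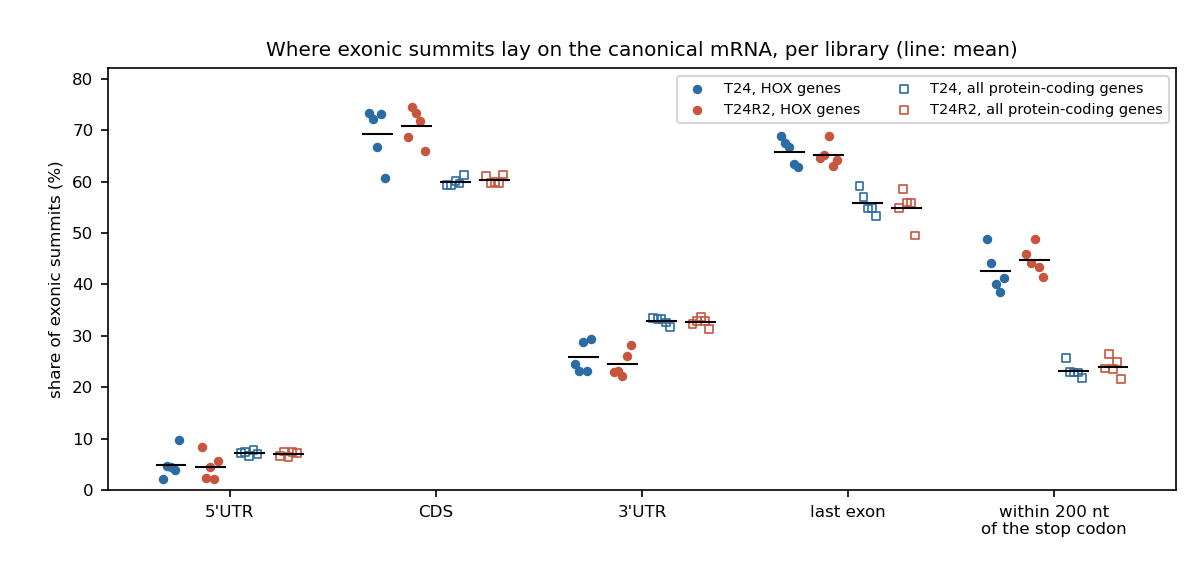
Share of exonic summits in percent for each library, with HOX genes as filled circles and all protein-coding genes as open squares, T24 in blue and T24R2 in red, and a line at each mean. HOX genes lie above all genes in the coding sequence for all but 1 library, and within 200 nt of the stop codon for every library.

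Pooled over the libraries, the homeobox held a share of the summits close to its share of the length. Of 329 coding summits, 147 lay before it (44.7%), 68 in it (20.7%) and 114 after it (34.7%). By length the same transcripts have 61.3% of their coding sequence before the homeobox and 20.2% in it. Summits were therefore fewer than length gives before the homeobox, near it inside, and more frequent in the short stretch between the homeobox and the stop codon. The shares in the homeobox were 21.5% in T24 and 19.9% in T24R2. A site found in several libraries counts several times in these shares. Counted once per region by the middle summit, 24 of 45 coding regions lay before the homeobox (53.3%). Another 6 lay in it (13.3%) and 15 after it (33.3%), so the share in the homeobox was then below its share of the length.

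Paralogues shared a site inside the homeobox. GGAC followed by A, C or T was present in the homeobox of 17 of the 39 HOX genes, and its A stood at nt 86 of the 180 nt homeobox in 7 of them, HOXA9, HOXB9, HOXC9, HOXD9, HOXA13, HOXB13 and HOXD13. In group 9, whose members pattern the trunk and take part in blood cell formation, this was the GGAC nearest to the middle summit of a region in each of the 4 paralogues, at 68 nt in HOXA9, 37 nt in HOXB9, 175 nt in HOXC9 and 62 nt in HOXD9. The region had a peak in 8 of 10 libraries for HOXA9 and in all 10 for the others. The 4 sites are printed to show how alike they are.
HOXA9, chr7:27163708-27163734, minus strand: tacctcaccagGGACCgcaggtacgag
HOXB9, chr17:48623002-48623028, minus strand: tacctcaccagGGACCgtaggcacgaa
HOXC9, chr12:54002537-54002563, plus strand: tatttaaccagGGACCgtcggtatgag
HOXD9, chr2:176124041-176124067, plus strand: tacctcacccgGGACCggcgctacgag
Pairs of them were identical at 20 to 24 of 27 bases, with HOXA9 and HOXB9 the closest. The middle summit lay in the homeobox in HOXA9, HOXB9 and HOXD9. In HOXC9 it lay in the 3'UTR, 53 nt past the stop codon. The match describes the letters and is no proof of the methylated base, since a peak is far wider than the motif. HOXB8 and HOXC8 shared another homeobox site, with its A at nt 117, in the regions that had a peak in all 10 libraries.
HOXB8, chr17:48613369-48613395, minus strand: cgcacgccctgGGACTgacagagagac
HOXC8, chr12:54011200-54011226, plus strand: ctcatgccctgGGACTgaccgagagac
These were identical at 24 of 27 bases. The site lay 78 nt from the middle summit in HOXB8 and 76 nt in HOXC8. Both middle summits lay after the homeobox, at codons 210 and 213, so they do not place the mark at this site. HOXC8 did not share the change of HOXB8: its region stood at a mean percentile of 87.7 in T24 and 84.8 in T24R2 (exact p = 0.722).

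The windows of 50 nt on each side of a summit were read for DRACH, where D stands for any base but C, R for a purine (A or G) and H for any base but G. On the strand of the gene it was present in 87.1% ± 4.48 (SD, n = 5) of HOX windows in T24 and 84.0% ± 3.77 in T24R2, beside 90.4% ± 0.874 and 89.8% ± 0.769 over all protein-coding genes. On the opposite strand of the same windows it was present in 61.2% ± 5.82 and 64.5% ± 8.68 for HOX genes. The narrower motif GGAC, whose matches are part of DRACH when A, C or T follows, was present in 55.4% ± 10.4 of HOX windows in T24 and 45.6% ± 2.34 in T24R2, and in 19.99% ± 3.44 and 14.8% ± 2.65 on the opposite strand. The lines overlapped, and the sense strand exceeded the opposite strand in both.

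HOX clusters are dense with antisense RNAs, and the peak lists carry no strand. Of the 508 summits 425 lay in an exon of 1 HOX gene and of no other gene (83.7%), 50 also in an exon of an antisense gene, 22 in exons of 2 HOX genes and 11 in an exon of another gene on the same strand. The antisense genes at most summits were HOXA-AS3 with 14, at HOXA6 and HOXA7, HOXA10-AS with 13, at HOXA9 and HOXA10, and HOXB-AS3 with 7, at HOXB6. A peak there cannot be given to one strand. HOXB8, HOXD10 and HOXA13 had no summit in an exon of an antisense gene.

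Long noncoding RNAs (lncRNAs) of the clusters also had peaks outside HOX exons. Of 28 annotated lncRNA genes 14 had a summit in an exon outside HOX exons, and LINC02086 and LINC03057 had one in all 10 libraries. HOTTIP, which lies beside HOXA13, had a summit in 5 T24 and 0 T24R2 libraries, and HAGLROS in 4 and 0. HOXC-AS2 had 0 and 5 outside HOX exons, but 3 and 5 when summits in exons shared with HOXC9 were counted. HOTAIR had no exonic summit in any library. The lncRNAs were outside the fit over protein-coding genes and were not tested, and no share over all lncRNA genes is given.

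The homeodomain partners of the TALE class were marked in 7 of 9 cases, 4 of them in all 10 libraries. Of all protein-coding genes 51.1% were marked and 27.5% were found in all 10, which is the background for the short lists here. MEIS3 had a summit in 0 T24 and 5 T24R2 libraries (exact p = 0.00794, adjusted p = 0.203) and PBX2 in 2 and 5. MEIS2 was found in all libraries, at percentiles of 62.2 ± 20.8 (SD, n = 5) and 89.0 ± 8.51 (exact p = 0.0159, adjusted p = 0.222). Over all genes, unadjusted calls toward T24R2 made up 5.8% in presence and 11.4% in percentile. MEIS1, PBX3 and PKNOX1 were found in all 10 without passing the unadjusted test, and PBX4 and PKNOX2 had no exonic summit. Chromatin regulators that hold HOX clusters open or closed were marked in 5 of 5 cases, with KMT2A, MEN1 and EED in all 10 libraries, SUZ12 in 3 and 5 and EZH2 in 2 and 0, and none passed the unadjusted test.

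Of 11 urothelial and epithelial markers 5 had an exonic summit. KRT7 was found in all 10 libraries, GATA3 in 5 T24 and 0 T24R2 libraries, KRT18 in 0 and 2, PPARG in 1 and 2 and UPK1A in 1 and 1, while KRT5, KRT8, KRT19, TP63, UPK2 and UPK3A had none. The mesenchymal markers CDH2 and ZEB1 were found in all 10 and VIM in 5 and 4. GATA3 (Fisher's exact p = 0.00794, adjusted p = 0.203) thus lay on the same side as HOXD10 and the upstream HOXB8 regions. KRT18 and PPARG had more T24R2 libraries, and KRT7 and UPK1A had equal counts. Of all marked genes, 2.28% had an unadjusted p under 0.05 toward T24. The part of GATA3 in the HOX results was not tested.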

How the data were processed

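MeRIP-seq peak lists of 10 IP libraries, 5 of T24 and 5 of T24R2, were used. Input libraries entered through the authors' peak calling alone. Per the study's methods, STAR 2.7.0 placed reads on hg38 using GENCODE 39, unique reads without duplicates were kept with SAMtools 1.10, and MACS2 3.0.0a6 called peaks per library. The score, the fold enrichment ratio and the −log10 p and q values are as deposited by the authors, who took every peak at a −log10 q of at least 2.00. There are no counts, so depth is unknown and the study's count tests were not run. Exons came from GENCODE 44, and all 24 chromosomes matched. Percentiles were taken within a list. Fisher's exact tests of presence and exact permutation tests were run over all features, with Benjamini-Hochberg adjustment, in Python 3.11.15 with SciPy 1.17.1 and bedtools 2.31.1, and were tested on simulated data. The members and lists were chosen with earlier results of these data known. Named are the marked HOX genes, apart from items not reported here, with values per library for those found in all 10 or in at least 4 libraries of one line and at most 1 of the other, regions likewise, plus fixed lists of partners, regulators, lncRNAs and markers. Alternatives were stricter peaks, equal peak numbers, other exon rules, a block on replicate number and omission of single libraries. A pairing by replicate number was looked for in peak strength and none was clear.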

Additional observations from a re-analysis of the deposited data

Results flagged for a closer look

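Of 81 groups of 5 libraries tested by the gap of the farthest library, 9 held a library that stood apart, where chance gives about 1 in 20, and no cause was tested. In T24 these were HOXA5 in replicate 5 (fold enrichment percentile 19.6, others 59.2 to 73.2), HOXB13 in replicate 1 (67.4, others 93.6 to 99.0), HOXB7 in replicate 4 (6.53, others 0.0964 to 1.81) and HOXC9 in replicate 2 (6.56, others 66.8 to 83.8). HOXD10 and HOXD11, which share a region, stood apart in T24 replicate 3 (72.5 and 57.4, others 94.8 to 99.9). In T24R2 they were HOXC6 in replicate 2 (63.6, others 79.8 to 84.8), HOXD8 in replicate 1 (47.9, others 70.3 to 77.4) and the HOXC10 region in replicate 3 (60.2, others 2.48 to 14.6). No library was the one apart in more than 2 genes.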

How the results depend on the processing

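The peak lists hold no counts, so read depth could not be weighed, and T24R2 lists were longer. No gene or region passed an adjusted p of 0.05 under any alternative. The HOXB8 coding region remained T24-only in all of them, and the HOXB8 5'UTR region in all but those with a minimum -log10 q or fold enrichment. The HOXD10 region was T24-only in all but the one asking for 50% cover. Where a value moved, the cause was not tested unless stated. The HOX counts below come without the share over all genes or regions under the same alternative, so they were not set against a background.

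The counts of HOX genes with an unadjusted presence p under 0.05 were 0 at a -log10 q of at least 5, and 4 at 10 (HOXA13, HOXA2, HOXB2 and HOXB7). They were 2 with canonical exons, 2 with summits in exons of 1 gene only and 2 with any overlap with an exon. Genes in every library fell to 13 and regions in every library to 12 at a -log10 q of at least 10, since fewer peaks were left, and regions to 10 when at least 50% of a region had to be covered. T24R2-only regions numbered 1 at a -log10 q of at least 5 (HOXD4) and 3 with 50% cover (HOXC10, HOXC4 and HOXD9). Genes with a higher percentile in T24 by the unadjusted test were 0 at a -log10 q of at least 5, at 10 and with peak numbers made equal, where HOXA13 was no longer in every library. With equal peak numbers those higher in T24R2 were 1, HOXB4. Regions without overlap and higher in T24R2 were 2 at a -log10 q of at least 10, 2 at a fold enrichment of at least 4, 1 with equal peak numbers and 1 by -log10 q, where 1 was higher in T24. With equal peak numbers the HOXB3, HOXB6 3'UTR and HOXB6 5'UTR differences were still 41.3, 42.8 and 37.5 points (exact p = 0.0159 each). At a -log10 q of at least 10 or a fold enrichment of at least 4, HOXB8 and the HOXB6 5'UTR region were no longer in every library. Windows with the motif were 67.6% at 25 nt on each side and 50.5% with GGAC.

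Leaving out each library in turn gave 24 to 25 genes in every library, 0 to 1 T24R2-only regions (1 without T24 replicate 1 or 4), 4 to 7 regions without overlap higher in T24R2 (7 without T24 replicate 2) and 0 to 1 higher in T24 (1 without T24 replicate 2 or T24R2 replicate 5). Genes higher in T24R2 were 2 to 4. HOXB3 lost its unadjusted call without any of T24 replicates 1, 4 and 5 and T24R2 replicates 1, 3, 4 and 5, with p from 0.0238 to 0.0952 over the exact permutation tests.

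With the replicate number as a block, 0 genes had an unadjusted p under 0.05 in presence, 0 in a percentile higher in T24R2 and 0 in one higher in T24, where the smallest p of 5 pairs is 0.0625. Same-numbered libraries correlated at -0.0372 to 0.116 and libraries of different number at -0.123 to 0.105. No clear pairing was thus seen in peak strength. With 5 same-numbered pairs this cannot exclude a batch shared by replicate number.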
